A study of Rattus norvegicus with 7 samples.

Results

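The genes described here encode the motors that carry cargo along microtubules and their fixed partners, namely the kinesins and kinesin light chains, the subunits of cytoplasmic dynein and those of dynactin. They were chosen by gene symbol. Probes whose gene symbol in the platform annotation begins with Kif followed by a digit, a or c, with Klc followed by a digit, or with Dync, Dynl or Dctn numbered 52 and stand for 50 of the 13337 named genes on the array. Of these 50 genes, 36 had a probe with a detection p-value under 0.02 on at least 2 of the 7 arrays and were tested, among 6592 named genes tested in all. Of the 36, 9 were placed in an anterograde group and 16 in a retrograde group by their known roles, and the other 11 belong to dynein 2, to the kinesins that move to the minus end or to the mitotic kinesins.

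In axons, microtubules lie with their plus ends outward. Most kinesins walk to the plus end and so carry vesicles, mitochondria and RNA granules from the cell body to the axon tip. Kinesin-1 is a pair of heavy chains (Kif5a, Kif5b or Kif5c) with light chains (Klc) that bind cargo and hold the motor inactive until cargo is bound. Cytoplasmic dynein 1 walks the other way, and it needs dynactin to bind many of its cargoes and to take long runs.

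RNA that co-purified with TRF2-S, a short isoform of telomere repeat-binding factor 2, was compared with RNA from a control IP. Cortical neurons from embryonic day 18 Sprague-Dawley rats were kept 9 days in culture, and the extract was incubated with beads carrying polyclonal anti-TRF2-S (H300) or rabbit IgG. Illumina rat Ref-12 arrays with a single colour read the RNA, 2 from the TRF2-S RIP and 5 from the IgG RIP (IgG1, IgG2, IgG3, IgG3_0 and IgG3_1x). The labels do not say which arrays come from separate cultures, so the p-values measure only the spread between these arrays, which may in part be technical. The arrays hold precipitated RNA only and input RNA was not analysed here, so stronger binding and more of an mRNA in the extract cannot be told apart.

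Between 7097 and 8326 of 22523 probes were detected per array. The arrays named IgG3, IgG3_0 and IgG3_1x stood apart from the other 4, with Pearson r of 0.875 to 0.934 over the 9187 probes tested, against 0.977 to 0.989 between IgG1 and IgG2 and the TRF2-S arrays. They correlated with each other at 0.979 to 0.999. Each comparison is therefore given against all 5 IgG arrays and against IgG1 and IgG2 alone, called the IgG1/IgG2 pair below. The 2 comparisons share the TRF2-S arrays and 2 IgG arrays. Of 10 neuronal marker genes, 9 were detected on all 7 arrays and every one on both TRF2-S arrays. The astrocyte marker *Aqp4*, the oligodendrocyte markers *Mag*, *Mog* and *Olig2* and the microglial markers *Cx3cr1*, *Itgam* and *Ptprc* were not detected on any array. Other glial markers were: 3 of 5 astrocyte markers and 1 of 5 oligodendrocyte markers were detected on all 7 arrays, and 1 of 4 microglial markers on each TRF2-S array. On the TRF2-S arrays the 5 astrocyte markers had a mean log2 level of 8.02 and 8.17, with 8.23 and 8.33 on IgG1 and IgG2 and 8.15 to 8.20 on the arrays named IgG3, and the part of this difference in the results was not tested.

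All levels below are log2 signals that were Z-score transformed on each array and put back on a common log2 scale. A log2 difference is the mean of the TRF2-S arrays minus the mean of the IgG arrays. No background was subtracted, which understates the differences of dim probes, and the number of arrays limits the precision.

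No motor mRNA passed limma at an adjusted p under 0.05 over all probes in either comparison. Against 5 IgG arrays limma called 0.0327% of all probes higher and 0% lower, and against the IgG1/IgG2 pair 0.142% and 0.0109%. The analysis of variance named in the methods also called 0 of the 36 after Benjamini-Hochberg adjustment in both comparisons. At an unadjusted p under 0.05 in limma, 8 motor mRNAs (22.2%) lay lower and 1 (2.78%) higher in the TRF2-S RIP against 5 IgG arrays, beside 6.06% of all probes in each direction. The 8 are *Klc1*, *Klc4*, *Dctn1*, *Dctn2*, *Dctn6*, *Dynlt3*, *Dync2i2* and *Kifc3*, and the 1 is *Dynlt2b*. Without IgG1 the number lower was 9, beside a larger share of 14.1% of all probes, and without IgG2 it was 8, beside 10.1%. The number lower was 1 without TRF2-S array 1 (beside 0.359% of all probes), 5 without TRF2-S array 2 (3.4%) and 5 without IgG3_1x (2.85%), and the number higher was 3 without IgG1 (beside 10.5% of all probes), 2 without IgG2 (10.1%) and 0 without TRF2-S array 2 (1.93%). Against the IgG1/IgG2 pair, 5 lay lower (13.9%, beside 6.02% of all probes) and 1 higher (2.78%, beside 6.51%). These were *Klc4*, *Dctn1*, *Dctn2*, *Dctn6* and *Dync2i2* on the lower side and *Dynlt2b* on the higher. The 5 became 1 without IgG2 (2.29%) or without TRF2-S array 1 (2.71%) and 8 without TRF2-S array 2 (9.15%). The 1 became 3 without IgG1 (beside 5.81% of all probes) and 0 without IgG2 (4.19%).

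Both TRF2-S arrays lay below all 5 IgG arrays for 9 of the 36 motor mRNAs, where 11.6% of all probes did, and above them for *Dynlt2b* alone, where 10.3% did. Against the IgG1/IgG2 pair the numbers were 10 below and 5 above, beside 19.4% and 22.5% of all probes. The median log2 difference of the 36 was -0.08 against 5 IgG arrays, beside -0.07 for all probes tested, and 0.01 against the IgG1/IgG2 pair, beside 0.00480 for all probes. The plot of all motor mRNAs by array shows these positions.

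Other rules and settings called some of these mRNAs, all but 1 on the lower side. The criteria of the study include a z-ratio of at least 1.5 in size. They were rebuilt here from the thresholds in the methods, which do not give the formulas. So rebuilt, the criteria took 5 against 5 IgG arrays, namely *Klc4*, *Dync2i2*, *Dctn1*, *Dctn2* and *Dctn6*. They took none higher, beside 2.09% of all probes lower and 1.6% higher. Against the pair they took 0, beside 1.39% and 2.3% of all probes. The analysis of variance without adjustment, at a p under 0.05, took 5 lower and 1 higher against 5 IgG arrays and 0 against the pair, where 9.27% and 7.54% of all probes passed in either direction. In limma with adjustment, the pair gave *Dctn2* and *Dctn6* after quantile normalization of all arrays, where 1.48% of all probes were called lower. It gave *Dctn2*, *Dctn6* and *Dync2i2* after quantile normalization of the 4 arrays alone (2.57% of all probes lower), and *Dctn2* and *Klc4* without IgG1 (1.76%). The 8 mRNAs with an unadjusted p under 0.05 on the lower side against 5 IgG arrays became 4 when the arrays named IgG3 were averaged (2.06% of all probes) or taken as a random block (1.95%). With median centring they became 1 (0.0871%), and with no normalization 0 (0.0435%). In these last settings the direction is relative to the median of all probes (-0.34 and -0.62). The p is of the difference before that median was taken off, so these counts do not test the relative differences. Counted the same way, the 5 of the pair became 0 in both, beside 0.0544% and 0.0109% of all probes.

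**Figure D1:**
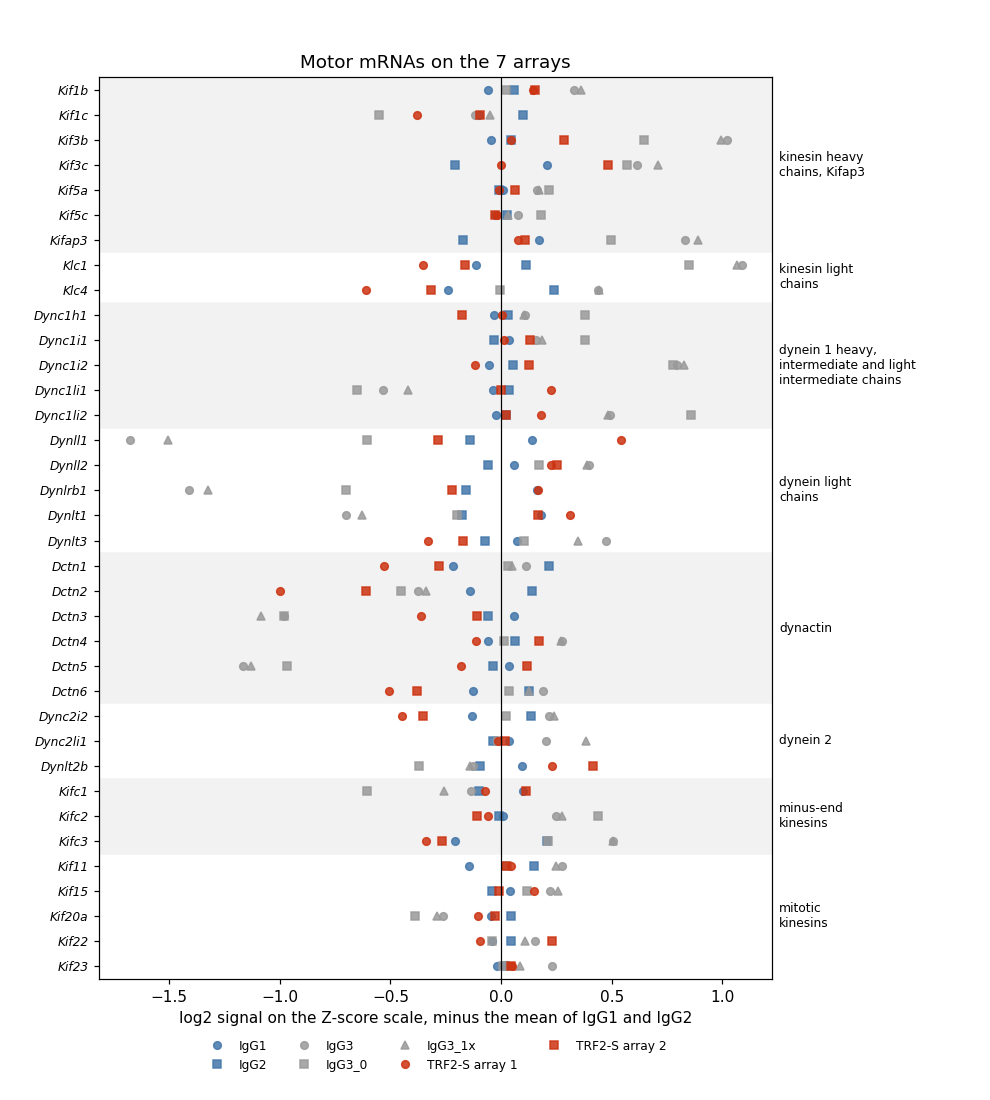
Level of the 36 tested motor mRNAs on each of the 7 arrays, as log2 signal on the Z-score scale minus the IgG1/IgG2 mean (horizontal axis), grouped by role. Blue points are IgG1 and IgG2, grey points the arrays named IgG3, red points the TRF2-S arrays. The red points lie left of every blue and grey point for Dctn1, Dctn2, Dctn6, Klc1, Klc4, Dynlt3, Dync2i2, Kifc2 and Kifc3, while for Dynll1 and Dynlrb1 the grey points lie far to the left of all others.

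Among the retrograde genes, the dynactin subunits *Dctn2* and *Dctn6* had the lowest log2 differences in both comparisons. Dynactin is built on a short filament of actin-related protein, with a projecting shoulder and arm that contact dynein and the microtubule. Of its 6 subunits tested, 4 had a log2 difference below 0 against 5 IgG arrays and 5 against the IgG1/IgG2 pair, with medians of -0.26 and -0.32, beside -0.07 and 0.00480 for all probes. In each comparison 3 of the 6 had an unadjusted p under 0.05, all on the lower side, where 6.06% and 6.02% of all probes had one. The median against 5 IgG arrays was -0.08 after quantile normalization and -0.13 without TRF2-S array 1, and that of the pair was -0.20 without TRF2-S array 1.

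*Dctn2* encodes dynamitin, a subunit of the shoulder. Its probe measured 9.21 and 9.60 on the TRF2-S arrays, 10.07 on IgG1, 10.35 on IgG2, and 9.83, 9.76 and 9.87 on IgG3, IgG3_0 and IgG3_1x. Both TRF2-S arrays lay below every IgG array. The log2 difference was -0.57 (standard error 0.19) against 5 IgG arrays, with an adjusted p = 0.41 from limma. Against the IgG1/IgG2 pair it was -0.80 (standard error 0.16, 95% confidence interval -1.19 to -0.42), or 1.75-fold lower, with an adjusted p = 0.145 from limma. Without IgG1, where the single IgG array left is assumed to vary like the TRF2-S arrays, this difference was -0.95 and passed (adjusted p = 0.0028 from limma). It also passed after quantile normalization of all 7 arrays (adjusted p = 0.017 from limma) or of these 4 alone (adjusted p = 0.0054), while other alternatives gave an adjusted p of up to 1.

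*Dctn6* encodes p27, a subunit of the pointed-end complex that caps the filament. It measured 6.79 and 6.92 on the TRF2-S arrays, against 7.17 and 7.43 on IgG1 and IgG2 and 7.49, 7.34 and 7.43 on the arrays named IgG3. The groups did not overlap. The log2 difference was -0.51 (standard error 0.12, adjusted p = 0.41 from limma) against 5 IgG arrays. It was -0.44 (standard error 0.13, adjusted p = 0.24 from limma), or 1.36-fold lower, against the IgG1/IgG2 pair. After quantile normalization the latter was -0.60 (adjusted p = 0.019 from limma, with 0.019 to 1 over all alternatives).

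*Dctn1* encodes p150Glued, the large subunit whose arm binds both dynein and the microtubule. It measured 8.38 and 8.62 on the TRF2-S arrays, 8.69 and 9.12 on IgG1 and IgG2, and 9.02, 8.94 and 8.95 on the arrays named IgG3. The higher TRF2-S array and the lowest IgG array were close. The log2 difference was -0.44 against 5 IgG arrays (standard error 0.14) and -0.41 against the IgG1/IgG2 pair (standard error 0.17), with adjusted p-values of 0.41 and 0.38 from limma.

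The other dynactin subunits did not lie below all 5 IgG arrays, though *Dctn3* lay below IgG1 and IgG2. *Dctn5*, which encodes p25 of the pointed-end complex, measured 7.40 and 7.70 on the TRF2-S arrays, 7.62 and 7.55 on IgG1 and IgG2, but 6.42, 6.61 and 6.45 on the arrays named IgG3, where it was not detected. Its log2 difference of 0.62 (standard error 0.38) against 5 IgG arrays was -0.03 (95% confidence interval -0.34 to 0.28) against the IgG1/IgG2 pair. *Dctn3*, for the shoulder subunit p24, likewise measured 10.19 and 10.07 on IgG1 and IgG2 and 9.15, 9.14 and 9.04 on the arrays named IgG3, with 9.77 and 10.02 on the TRF2-S arrays. Its log2 difference was 0.37 against 5 IgG arrays and -0.24 against the IgG1/IgG2 pair. *Dctn4*, for p62 of the pointed end, had -0.08 and 0.03. None of these 3 had an unadjusted p under 0.05 in either comparison.

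**Figure D2:**
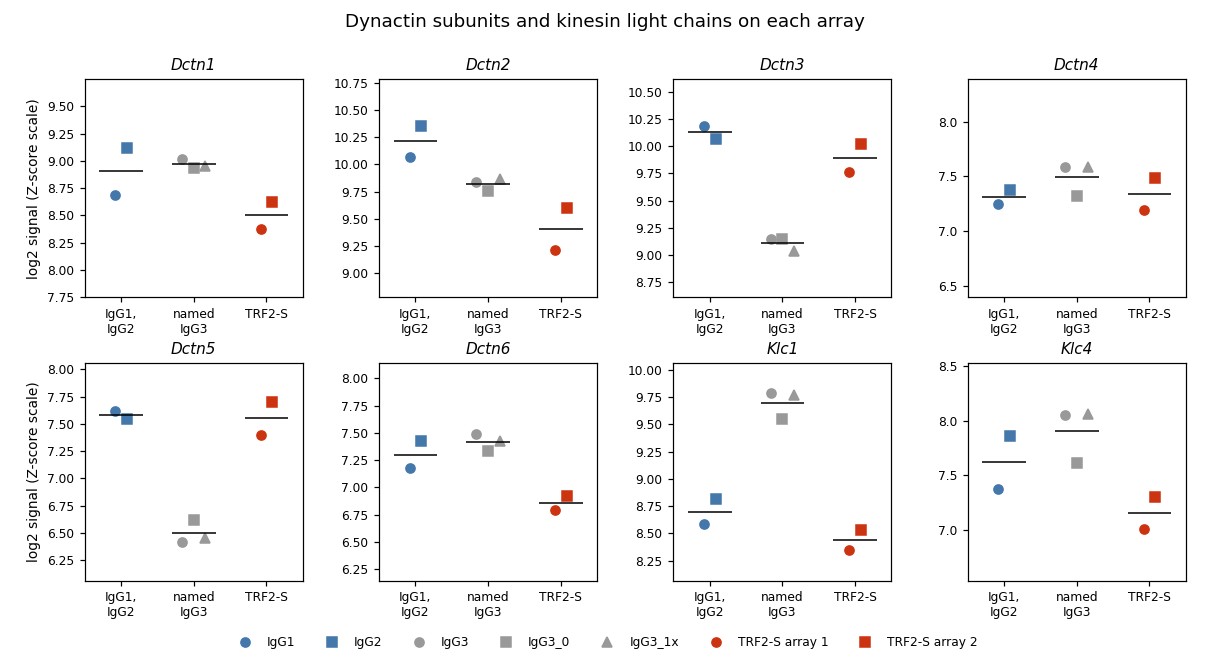
Log2 signal on the Z-score scale (vertical axis, 2 log2 units in every panel) of the 6 dynactin subunits and of Klc1 and Klc4 on each array. Points are single arrays and lines are means of IgG1 and IgG2, of the 3 arrays named IgG3 and of the 2 TRF2-S arrays. Of the dynactin subunits, Dctn3 and Dctn5 differ most between the IgG arrays themselves, and Klc1 is highest on the arrays named IgG3.

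The large subunits of dynein 1 lay close to IgG1 and IgG2. *Dync1h1* encodes the heavy chain, which holds the motor domain. It measured 10.40 and 10.22 on the TRF2-S arrays, 10.37 and 10.43 on IgG1 and IgG2, and 10.50, 10.78 and 10.50 on the arrays named IgG3. The TRF2-S values lay on both sides of IgG1 and IgG2, with a log2 difference of -0.09 (95% confidence interval -0.36 to 0.19), and of -0.20 (standard error 0.14) against 5 IgG arrays. The intermediate chains *Dync1i1* and *Dync1i2*, which bind dynactin, had 0.07 and 0.01 against the IgG1/IgG2 pair, and the light intermediate chains *Dync1li1* and *Dync1li2*, which bind cargo adaptors, had 0.11 and 0.10. Against 5 IgG arrays the 4 had values from -0.47 to 0.43, and no member of this group had an unadjusted p under 0.05 in either comparison. *Dync1i2* and *Dync1li2* measured higher on all 3 arrays named IgG3 (9.62 to 9.67 and 10.98 to 11.35) than on any of the other 4 (8.72 to 8.97 and 10.47 to 10.68). *Dync1li1* was detected on 1 of the 5 IgG arrays.

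The dynein light chains are small proteins that clasp the intermediate chains. *Dynll1* and *Dynlrb1* had the highest log2 differences of all motor mRNAs against 5 IgG arrays. *Dynll1*, for the light chain LC8, measured 14.07 and 13.24 on the TRF2-S arrays, 13.67 and 13.39 on IgG1 and IgG2, but 11.85, 12.92 and 12.02 on IgG3, IgG3_0 and IgG3_1x. The log2 difference was therefore 0.89 (standard error 0.53, adjusted p = 0.41 from limma) against 5 IgG arrays and 0.13 (95% confidence interval -0.47 to 0.73) against the IgG1/IgG2 pair. *Dynlrb1*, for a roadblock light chain, measured 12.85 and 12.46 on the TRF2-S arrays, 12.84 and 12.52 on IgG1 and IgG2, and 11.27, 11.98 and 11.36 on the arrays named IgG3. Its log2 differences were 0.66 (standard error 0.44) and -0.03 (standard error 0.17). *Dynlt1*, for the light chain Tctex-1, measured 11.79 and 11.65 on the TRF2-S arrays, 11.66 and 11.30 on IgG1 and IgG2, and 10.78, 11.28 and 10.85 on the arrays named IgG3, with differences of 0.55 (standard error 0.24) and 0.24 (standard error 0.15). The TRF2-S arrays overlapped with IgG1 and IgG2 for all 3, and those of *Dynll1* lay on either side of both.

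The differences of these 3 light chains against 5 IgG arrays varied with the scaling. The deposited signal of *Dynll1* was 16643 on IgG3, 7379 on IgG3_0 and 15192 on IgG3_1x, above the 4288 and 5959 on IgG1 and IgG2 and the 4129 and 6735 on the TRF2-S arrays. The log2 signals had an SD of 1.61 on IgG3 and 1.56 on IgG3_1x, against 0.924 to 1.16 on the other arrays. The Z-score divides by this SD. On IgG3_0 it was 1.16, as on TRF2-S array 2, and its part in the low values was not tested. When arrays were median-centred without a Z-score, and relative to the median of all probes (-0.34 in that setting), the log2 differences against 5 IgG arrays turned to -0.09 for *Dynll1*, -0.13 for *Dynlrb1* and -0.11 for *Dynlt1*. After quantile normalization the 3 genes kept values above 0, at 0.38, 0.29 and 0.34 in that order. With neqc background correction they had 0.41, 0.32 and 0.38. The other 2 light chains tested differ from these. *Dynll2*, the second LC8 gene, had 0.05 against 5 IgG arrays and 0.24 against the IgG1/IgG2 pair, with -0.11 under median centring against 5 IgG arrays. *Dynlt3*, of the Tctex family, measured 8.22 and 8.38 on the TRF2-S arrays and 8.48 to 9.03 on the IgG arrays, and had -0.44 (standard error 0.17) and -0.25 (standard error 0.12), with adjusted p-values of 0.41 and 0.45 from limma.

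Among the anterograde genes, the kinesin light chains had the lowest values. *Klc1*, the light chain abundant in neurons, measured 8.35 and 8.53 on the TRF2-S arrays, 8.58 and 8.81 on IgG1 and IgG2, and 9.78, 9.55 and 9.77 on the arrays named IgG3. Both TRF2-S arrays lay below every IgG array, though only just below IgG1. Against 5 IgG arrays the log2 difference was -0.86 (standard error 0.36, adjusted p = 0.41 from limma), and it was -0.26 (standard error 0.13, adjusted p = 0.49 from limma) against the IgG1/IgG2 pair. *Klc4*, another of the light chains, measured 7.01 and 7.30 on the TRF2-S arrays, 7.38 and 7.86 on IgG1 and IgG2, and 8.06, 7.61 and 8.06 on the arrays named IgG3. Again the groups did not overlap. Its log2 difference was -0.64 (standard error 0.21, adjusted p = 0.41 from limma) against 5 IgG arrays. Against the IgG1/IgG2 pair it was -0.47 (standard error 0.18, adjusted p = 0.36 from limma), or 1.38-fold lower. The last value was -0.71 and passed without IgG1 (adjusted p = 0.028 from limma) but was -0.22 without IgG2, and other alternatives gave an adjusted p of up to 1.

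None of the 7 other anterograde mRNAs, 6 kinesin motor subunits and the accessory protein *Kifap3*, had an unadjusted p under 0.05 in either comparison. *Kif5a*, a neuronal heavy chain of kinesin-1, measured 6.66 and 6.74 on the TRF2-S arrays, 6.68 and 6.66 on IgG1 and IgG2, and 6.84, 6.89 and 6.85 on the arrays named IgG3. Its log2 differences were -0.08 (95% confidence interval -0.35 to 0.18) and 0.03 (-0.22 to 0.27), in the 2 comparisons, in that order. *Kif5c*, the other neuronal heavy chain with a tested probe, was not above background on either TRF2-S array (6.63 and 6.62) and had 6.62 to 6.83 on the IgG arrays. A second, dimmer probe of *Kif5c*, detected on IgG3 and IgG3_1x alone, had 6.53 and 6.34 on the TRF2-S arrays. That probe had 6.14 and 6.24 on IgG1 and IgG2 and 6.63, 6.57 and 6.62 on the arrays named IgG3. Its TRF2-S values thus lay above IgG1 and IgG2, unlike those of the first probe. These values lie near the dim end of the array, where a difference in mRNA would be compressed.

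*Kif1b*, a kinesin-3 that carries mitochondria and synaptic vesicle precursors, measured 7.00 and 7.01 on the TRF2-S arrays, 6.80 and 6.92 on IgG1 and IgG2, and 7.19, 6.88 and 7.22 on the arrays named IgG3. It lay above IgG1 and IgG2 by 0.15 (standard error 0.11, adjusted p = 0.67 from limma) and had 0.00490 against 5 IgG arrays. *Kif3c*, a neuronal subunit of kinesin-2, measured 9.22 and 9.70 on the TRF2-S arrays, 9.43 and 9.01 on IgG1 and IgG2, and 9.83, 9.79 and 9.92 on the arrays named IgG3. Its log2 differences were -0.14 (standard error 0.27) and 0.24 (standard error 0.20), and of the TRF2-S values the lower lay between IgG1 and IgG2 and the higher above both. The kinesin-2 motor subunit *Kif3b* and its accessory protein *Kifap3* had -0.37 and -0.35 against 5 IgG arrays and 0.16 and 0.09 against the IgG1/IgG2 pair. Both measured higher on every array named IgG3 (8.75 to 9.13 and 7.62 to 8.01) than on the other 4 arrays (8.06 to 8.39 and 6.95 to 7.29). *Kif1c*, a widely expressed kinesin-3, was detected on IgG2 and IgG3_1x only, and its differences of -0.09 and -0.24 are of signal near background.

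Anterograde and retrograde motors were then set side by side. Against 5 IgG arrays, 8 of 9 anterograde and 9 of 16 retrograde mRNAs had a log2 difference below 0, with medians of -0.14 and -0.08, beside -0.07 for all probes, of which 5396 of 9187 lay below 0. Against the IgG1/IgG2 pair, 4 of 9 and 8 of 16 lay below 0, with medians of 0.03 and -0.01, beside 4468 of 9187 probes and 0.00480. The anterograde median minus the retrograde one was thus -0.06 and 0.04. On single arrays, the anterograde median level minus the retrograde one had a pooled SD within groups of 0.479 over 7 arrays and 0.261 over the 4. That SD compares levels of different genes and not differences per gene, so it is no measure of the spread of -0.06 and 0.04. Whether the gap between the 2 class medians exceeds the spread between arrays was not tested. Values within each class lay further apart than this gap. With 5 IgG arrays, anterograde mRNAs spanned -0.86 to 0.00490 and retrograde mRNAs -0.57 to 0.89. For the IgG1/IgG2 pair these ranges were -0.47 to 0.24 and -0.80 to 0.24.

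**Figure D3:**
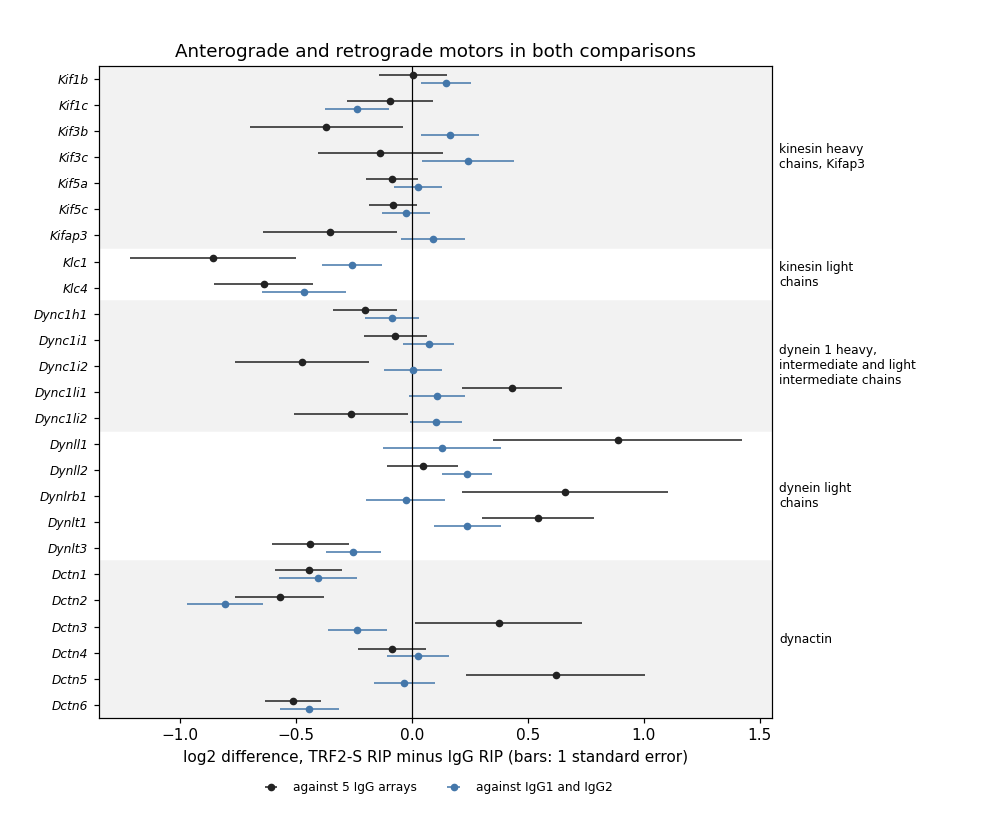
Log2 difference of the 9 anterograde and 16 retrograde motor mRNAs, TRF2-S RIP minus IgG RIP (horizontal axis), with bars of 1 standard error from limma. Black points are against 5 IgG arrays and blue points against the IgG1/IgG2 pair. The point of Dynll1 lies at 0.89 against 5 IgG arrays and at 0.13 against the IgG1/IgG2 pair, while those of Dctn1, Dctn2, Dctn6 and Klc4 lie from -0.80 to -0.41 in both.

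Medians by group on single arrays show how far the IgG arrays lay apart. Measured from the IgG1/IgG2 mean, the median of the dynein light chains was -0.70, -0.20 and -0.63 on IgG3, IgG3_0 and IgG3_1x, and 0.22 and -0.17 on the TRF2-S arrays. That of the kinesin light chains was 0.76, 0.42 and 0.75 on these 3 IgG arrays and -0.48 and -0.24 on the TRF2-S arrays, from 2 genes. The kinesin heavy chains with *Kifap3* had 0.33, 0.22 and 0.36, against 0.00140 and 0.11 on the TRF2-S arrays. Dynactin had -0.13, -0.22 and -0.14, with -0.43 and -0.20 on TRF2-S arrays 1 and 2, and the median of all probes tested lay between -0.03 and 0.16 on the 7 arrays.

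**Figure D4:**
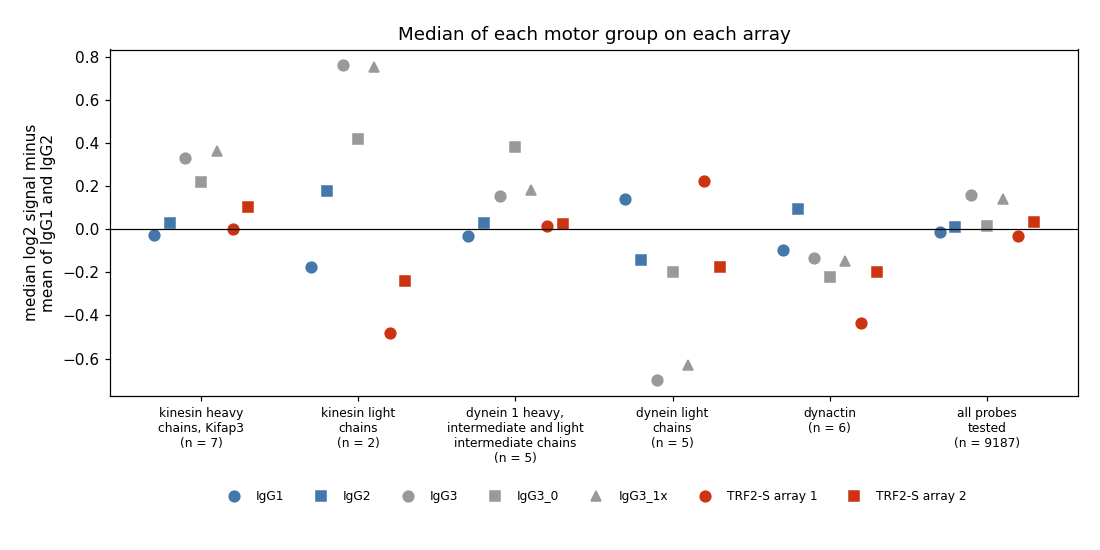
Median of each motor group on each array, as log2 signal on the Z-score scale minus the IgG1/IgG2 mean (vertical axis), with the number of genes under each group and all 9187 tested probes for comparison. Each point is an array. The arrays named IgG3 lie from 0.42 to 0.76 for the kinesin light chains and from -0.70 to -0.20 for the dynein light chains, and the TRF2-S arrays are lowest for the kinesin light chains.

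Dynein 2 is the retrograde motor of cilia, and 3 of its genes were tested. *Dynlt2b*, for a Tctex-type light chain of this motor, measured 7.03 and 7.22 on the TRF2-S arrays, 6.90 and 6.71 on IgG1 and IgG2, and 6.68, 6.43 and 6.66 on the arrays named IgG3. Both TRF2-S arrays lay above every IgG array, and it was not detected on IgG3_0. The log2 difference was 0.45 (standard error 0.14, adjusted p = 0.41 from limma) against 5 IgG arrays and 0.32 (standard error 0.12, adjusted p = 0.35 from limma) against the IgG1/IgG2 pair, or 1.25-fold. *Dync2i2*, for an intermediate chain, lay on the other side, with 7.42 and 7.51 on the TRF2-S arrays, 7.73 and 8.002 on IgG1 and IgG2, and 8.09, 7.89 and 8.11 on the arrays named IgG3. Its log2 differences were -0.50 (standard error 0.13) and -0.40 (standard error 0.13), with adjusted p-values of 0.41 and 0.27 from limma. After quantile normalization of IgG1, IgG2 and the TRF2-S arrays alone, the latter was -0.35 and passed (adjusted p = 0.044 from limma). *Dync2li1*, for the light intermediate chain, had -0.12 and -2e-04.

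The C-terminal kinesins walk to the minus end, and all 3 were detected on every array. *Kifc3* measured 8.07 and 8.14 on the TRF2-S arrays and 8.21 to 8.92 on the IgG arrays, with log2 differences of -0.55 (standard error 0.20) and -0.30 (standard error 0.15). *Kifc2*, which is known from neurons, had 9.24 and 9.19 on the TRF2-S arrays and 9.29 to 9.74 on the IgG arrays, with -0.28 and -0.08. *Kifc1*, a motor of the mitotic spindle, had 0.22 and 0.02. The lowest adjusted p of these 3 from limma was 0.41.

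Kinesins of cell division were at low levels on all arrays. *Kif20a* and *Kif22* were detected on all 7 arrays, *Kif23* on 6, *Kif11*, the spindle motor Eg5, on 4, and *Kif15* on 2. Their log2 differences lay between -0.08 and 0.12 against 5 IgG arrays and between -0.07 and 0.07 against the IgG1/IgG2 pair, and 0 of the 5 had an unadjusted p under 0.05. Of 4 marker genes of dividing cells with a probe, 2 were detected on all arrays. The TRF2-S arrays had a mean level of the 4 of 6.99 and 7.17, with 7.06 and 7.11 on IgG1 and IgG2, and 6.80 to 7.21 on the arrays named IgG3.

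Proteins that work with these motors but fall outside the symbol rule were looked at as a list of 55 genes, of which 38 had a named probe and 28 were tested. At an unadjusted p under 0.05, 3 (10.7%) lay higher and 4 (14.3%) lower in each comparison, and 0 passed over all probes in limma. Of all probes, 6.06% lay higher and 6.06% lower against 5 IgG arrays, and 6.51% and 6.02% against the pair. The median log2 difference of the 28 was -0.20 against 5 IgG arrays, beside -0.07 for all probes, and -0.00990 against the IgG1/IgG2 pair, beside 0.00480. *Trak1*, the adaptor that links kinesin-1 and dynein to mitochondria, measured 9.33 and 9.59 on the TRF2-S arrays, 10.06 and 9.91 on IgG1 and IgG2, and 10.96, 11.25 and 11.01 on the arrays named IgG3. The log2 differences of *Trak1* were -1.18 (standard error 0.39, adjusted p = 0.41 from limma) and -0.53 (standard error 0.13, adjusted p = 0.19 from limma). *Rhot2*, for a mitochondrial GTPase that anchors Trak proteins, had -0.20 and -0.33.

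On the higher side of that list were *Capzb*, *Ppfia2* and *Ppfia3*. *Capzb*, for the β subunit of the capping protein at the barbed end of actin and dynactin filaments, measured 10.86 and 10.75 on the TRF2-S arrays and 10.20 to 10.54 on the IgG arrays. The log2 differences of *Capzb* were 0.49 (standard error 0.13) and 0.44 (standard error 0.14). *Ppfia2* and *Ppfia3* encode liprins, scaffold proteins of the presynaptic active zone that bind Kif1a. They had 0.45 and 0.93 against 5 IgG arrays and 0.31 and 0.47 against the IgG1/IgG2 pair. *Actr1a*, which was added to the genes named after its values were seen because it encodes Arp1, the main subunit of the dynactin filament, measured 9.06 and 9.43 on the TRF2-S arrays and 9.45 to 9.81 on the IgG arrays. Its log2 differences were -0.42 (standard error 0.16) and -0.41 (standard error 0.16), with adjusted p-values of 0.41 and 0.34 from limma. Other tested genes of the dynactin filament in that list did not lie low. *Actr10* had -0.01 and 0.03, and *Capza2* had 0.91 (standard error 0.52) and 0.03.

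The other 14 motor genes were not tested. *Kif2a*, a kinesin that takes microtubules apart, lay just outside the limit, with detection on IgG3_1x alone, and *Kif1c* and *Kif15* lay just inside it, with detection on 2 arrays each. The remaining 13, among them *Kif5b*, the heavy chain of kinesin-1 found in most cells, *Kif13a*, *Kif13b* and *Kif16b* of kinesin-3, the light chain *Klc3*, and *Dynlrb2*, were not detected on any array. *Kif5b* had a log2 signal of 6.58 and 6.34 on the TRF2-S arrays and of 6.24 to 6.38 on the IgG arrays. No named probe of *Kif1a*, *Kif3a* or *Klc2* was analysed here.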

How the data were processed

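The authors deposited linear signal intensity values for each probe, without normalization between arrays, and a detection p-value that sets each probe against the negative control beads. They also deposited a score, which matches a per-array Z-score of log intensities to within 5e-10. Its log base cancels and its median lay between -0.474 and -0.378. Scanner software was BeadStudio 1.5 per the methods and GenomeStudio 2011.1 per the submitters' processing notes.

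Here log2 intensities were Z-score transformed per array and rescaled to a common mean of 6.98 and SD of 1.21. The 9187 probes detected on at least 2 arrays were fitted with limma 3.58.1 (R 4.3.3; lmFit, eBayes, Benjamini-Hochberg over all probes, threshold 0.05), after a check on simulated data. The brightest tested probe stands for a gene. Of 22523 probes, 13793 have 1 symbol in the platform annotation, 0 have several and 8730 have none. The motors, their role groups and the partner list were chosen with earlier results of these data known, so lists are described by counts and medians with no test. Values per array are given for core axonal motors, the 3 highest and 3 lowest differences in each comparison and the 3 brightest genes. Other motors, and *Actr1a*, *Actr10* and *Capza2*, were named after their values were seen. Partner genes were named by the 3 smallest p-values. Alternatives covered normalization, background, filters, probes per gene, arrays left out, averaged or blocked, and the tests of the methods.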

Additional observations from a re-analysis of the deposited data

How the results depend on the processing

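The number of motor mRNAs called at an adjusted p under 0.05 was 0 in both comparisons and stayed 0 in most alternatives. Against 5 IgG arrays the criteria of the study, as rebuilt here, gave 5 and the unadjusted analysis of variance gave 6. The IgG1/IgG2 pair gave 2 after quantile normalization, 3 after quantile normalization of the 4 arrays alone and 0 to 2 with 1 array left out. With the replicate number as a block, limma called 5 lower in both comparisons (*Klc4*, *Dync2i2*, *Dctn1*, *Dctn2* and *Dctn6*), among 310 of 9187 probes lower and 338 higher. Arrays of the same number deviated together at r = 0.28 over the probes tested. With 2 arrays per group the crossed pairing gives -0.28 by construction, so the size of r does not show a pairing. Only 2 pairs exist, and the labels do not say that the numbers pair the arrays. The block leaves the arrays named IgG3 without weight by its construction, so its values are those of the pair.

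The anterograde minus retrograde median was -0.06 for 5 IgG arrays and lay between -0.25 and 0.04 over all alternatives. For the pair it was 0.04 and lay between 0.02 and 0.15. Values under other normalizations are relative to the median of all probes, which lay at -0.34 with median centring, -0.62 with no normalization, -0.04 with quantile normalization and -0.07 with neqc against 5 IgG arrays. The p-values in these settings are of the differences before that median was taken off. Of the 36 motors, 13 kept the direction of their difference with 5 IgG arrays and 21 with the pair, in every alternative that kept their probe. In both counts were *Dctn1*, *Dctn2*, *Dctn6*, *Klc1*, *Klc4*, *Dynlt3*, *Dync2i2*, *Kifc2*, *Kifc3* and *Dynlt2b*. The alternatives reuse the same arrays, and the share of all probes that kept their direction was not computed. The other motors changed sign in at least 1 alternative. Except where a value above shows it, the cause was not tested.

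Against 5 IgG arrays, median centring and no normalization gave the same values and changed the sign of these differences, to *Kif1c* 0.23, *Kif5a* 0.16, *Kif5c* 0.18, *Dync2li1* 0.028, *Kif11* 0.15, *Kif15* 0.22, *Kif23* 0.21, *Dctn4* 0.024, *Dynll1* -0.089, *Dynll2* -0.11, *Dynlrb1* -0.13 and *Dynlt1* -0.11. Quantile normalization did so for *Kif3c* 0.018 and *Dctn4* 0.055, and neqc for *Kif3c* 0.046 and *Dctn4* 0.089. With the arrays named IgG3 averaged, those with a changed sign were *Kif3c* 0.032, *Kif15* 0.0025 and *Kif23* 0.011, and with them as a random block *Kif23* 0.0051. The replicate block gave the opposite sign to *Kif3b* 0.16, *Kif3c* 0.24, *Kif5a* 0.026, *Kifap3* 0.090, *Kif11* 0.032, *Kif15* 0.069, *Kif20a* -0.065, *Kif23* 0.048, *Dctn3* -0.24, *Dctn4* 0.027, *Dctn5* -0.033, *Dync1i1* 0.072, *Dync1i2* 0.0050, *Dync1li2* 0.10 and *Dynlrb1* -0.027. For the pair, median centring or no normalization gave *Dync1i2* -0.0017 and quantile normalization of the 4 arrays *Dctn4* -0.00090.

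With 1 array left out of the 7, the difference ranged for *Kif1b* from -0.045 to 0.060, *Dynll2* from -0.017 to 0.098, *Kif23* from -0.038 to 0.024, *Kif1c* from -0.23 to 0.047, *Kif3c* from -0.38 to 0.11, *Dctn4* from -0.23 to 0.058, *Kif15* from -0.13 to 0.028 and *Kif22* from -0.14 to 0.19. With 1 of the 4 left out it ranged for *Dync2li1* from -0.035 to 0.035, *Kif11* from -0.11 to 0.18, *Dctn4* from -0.12 to 0.17, *Dctn5* from -0.18 to 0.12, *Dync1i2* from -0.12 to 0.13, *Dynlrb1* from -0.22 to 0.17, *Kif5c* from -0.053 to 0.0035, *Kifap3* from -0.083 to 0.26, *Kifc1* from -0.079 to 0.12, *Dynll1* from -0.29 to 0.54, *Kif15* from -0.0094 to 0.15, *Dync1li1* from -0.0027 to 0.22, *Kif5a* from -0.0094 to 0.062, *Kif22* from -0.098 to 0.23 and *Dync1h1* from -0.17 to 0.0044.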
